A study of Drosophila melanogaster with 6 samples.

Results

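A set of 41 genes was 2.02 to 3.45 times as strongly detected in eye imaginal discs of *mir-998* mutant larvae as in wild type discs, with no overlap between the arrays of the genotypes. The set was chosen by these values. A gene was selected where its mutant mean was above its wild type mean by 1.0 to 2.0 on the log2 scale, its lowest mutant value was above its highest wild type value, and its mutant mean was 7 or more. Of the 11982 genes read on the arrays, 67 had a difference in that range, 66 of them without overlap, and 44 of these reached the level. Setting aside 3 genes by name (cytochrome P450s, glutathione S-transferases and *Cbl*) left 41 of 11982. The differences below therefore describe how the members were selected, and neither they nor the calls of members are independent tests.

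RNA was taken from eye discs of wandering larvae, the last larval stage, 3 *mir-998* mutant samples (*w; mir-998[exc222]*, homozygous) and 3 wild type samples (*w1118*), all labelled as biological replicates and grown at 25 °C. Each of the 6 samples was hybridized to 1 Affymetrix *Drosophila* array. The mutant is a single allele, made by imprecise excision of a *P* element that left a remnant of the element inside the *mir-998* hairpin, within the last intron of *dE2f1*. Nothing in the sources says that the *w1118* stock shares the genetic background of the mutant beyond the *white* mutation, so allele and background cannot be told apart, and p-values measure the spread among these 3 and 3 samples only.

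A miRNA pairs through its seed with sites in mRNAs and lowers their translation or stability, so that transcripts can become more abundant when it is lost, directly or as a later consequence. The eye imaginal disc is the larval epithelium that forms the adult eye. In wandering larvae a furrow crosses it, with photoreceptor clusters forming behind, while the steroid hormone ecdysone prepares the animal for pupariation. Blood cells attach to discs, and other larval tissues can adhere to them during dissection.

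The label of the tissue was checked against 18 measured eye disc markers. All 18 had a wild type mean of 7 or more, and their mean log2 level was 9.92, 9.93 and 10.02 on the 3 mutant arrays and 9.69, 9.96 and 9.33 on the 3 wild type arrays. Array medians were close, at 5.25 to 5.30, and the mean of 3 control probe sets for a bacterial gene was 3.63 to 3.72. Markers of other tissues varied between arrays of 1 genotype. The mean of 10 salivary gland genes was 11.95, 8.99 and 9.42 on the mutant arrays and 9.34, 11.41 and 11.43 on the wild type arrays, and that of 8 fat body genes was 7.22, 5.96 and 5.61 in the mutant and 7.43, 6.29 and 5.85 in wild type. For 11 muscle genes the mean was 11.28, 11.18 and 11.58 in the mutant and 11.56, 11.84 and 11.92 in wild type, lower in the mutant except that mutant replicate 3 was above wild type replicate 1. Gut (4.80 to 4.85 in the mutant, 4.85 to 5.32 in wild type) and testis markers (4.66 to 4.73 and 4.62 to 4.73) lay under the array medians or close to them. The 5.32 was on wild type replicate 3. There the gut genes *Jon65Aiv*, *Jon65Aiii* and *Jon74E* read 7.80, 7.74 and 7.82, against 4.41 to 5.46 on all other arrays. Not every gene of the list was high there, and *Mal-A1* read 7.10, 5.74 and 5.35 in wild type. The part of these tissues in the values below was not tested. In RNA of whole discs, a change in the number of cells that express a gene and a change in RNA per cell cannot be told apart.

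Across the 41 genes the median difference was 1.22 on the log2 scale, a 2.32-fold level, beside a median of 0.00 over all 11982 genes. Only 5 members differed by 1.5 or more, and 19 by less than 1.2. Mutant means ran from 7.11 (*Epac*) to 12.66 (*Hsp26*), and wild type means from 5.67 (*CG2065*) to 11.28 (*Hsp26*). The space between the lowest mutant and the highest wild type value was 0.14 to 1.55, with a median of 0.71, and it was 1.0 or more in 7 genes and under 0.5 in 7. Over all genes, 9.37% met the condition of no overlap in this direction, a condition that the members had to meet. In the limma fit over all probe sets, 24 members passed the adjusted p of 0.05 and 17 did not, beside 0.968% of all genes called higher (116 of 11982). Because the same contrast chose the members, that count is a description, and so is each call of a member given below. The count was 10, 11 and 10 without mutant replicate 1, 2 or 3.

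**Figure D1:**
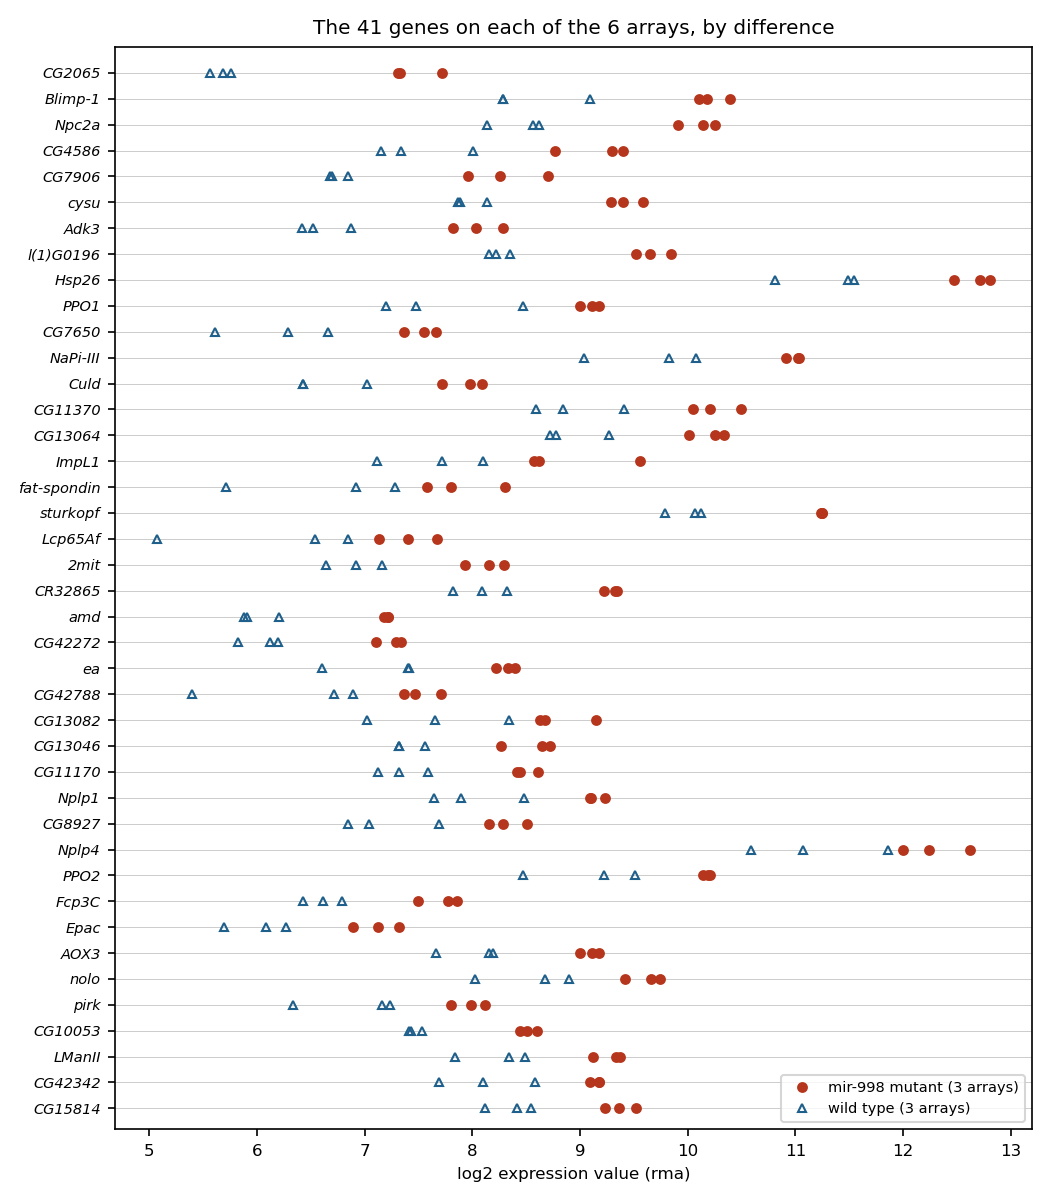
Log2 expression value (rma) of the 41 genes, a row each, on 3 *mir-998* mutant arrays (filled circles) and 3 wild type arrays (open triangles), ordered by difference from 1.79 (*CG2065*, top) to 1.01 (*CG15814*, bottom). By selection no triangle reaches the circles of its row, and the closest pair is in *Nplp4* (0.14); levels of different rows come from different probes and are not compared.

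**Figure D2:**
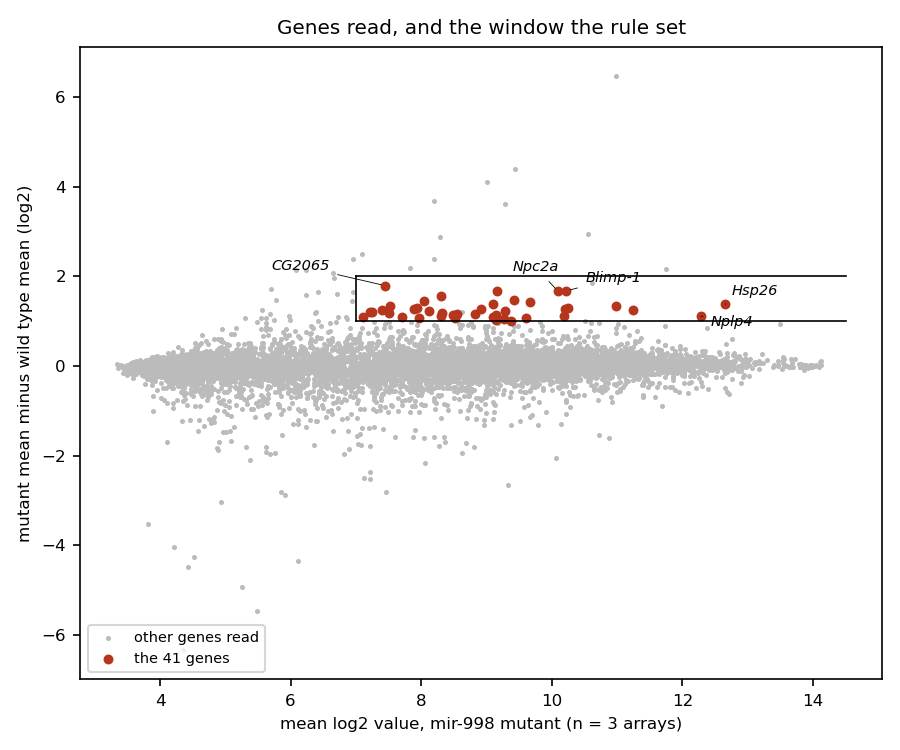
Each point is 1 of 11982 genes, at its mean log2 value in the mutant (horizontal axis) and its mutant mean minus wild type mean (vertical axis, log2). Lines mark the bounds at 7, 1.0 and 2.0, red points are the 41 members, and gray points between the lines are the 3 genes left out by name and *Hr3*, whose arrays overlapped.

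The lower difference bound and the level bound had genes close on both sides. At the upper bound none was close among the genes not set aside by name. At the lower difference, *CG15814* (1.01) and *CG42342* (1.03) lay just inside, and *Obp83g* (0.99), an odorant binding protein gene, and the blood cell gene *Hml* (0.98) just outside. At the upper end *CG2065* (1.79) and *Blimp-1* (1.67) were the last inside, and *CG11300* (2.16) and *CG6055* (2.18) the first of 11 genes beyond 2.0 that met the other conditions. *Epac* (7.11) and *amd* (7.21) had the lowest mutant means kept, while *NimC1* (6.95, difference 1.64) and *Oseg5* (6.94, difference 1.45) were under 7. *Nplp4* (0.14), then *Lcp65Af* and *CG13082* (0.29 each), had the narrowest space between genotypes. A single gene in the range failed on overlap, the ecdysone-induced nuclear receptor gene *Hr3*, which read 8.59, 9.04 and 8.26 in the mutant and 7.07, 6.89 and 8.29 in wild type, a difference of 1.21.

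Among regulators of the response to ecdysone, *Blimp-1* stood near the top of the set. It encodes a zinc finger repressor that ecdysone induces and that delays the expression of *ftz-f1*. *Blimp-1* read 10.10, 10.39 and 10.18 in the mutant, against 8.28, 8.28 and 9.09 in wild type, a difference of 1.67 that was called. The 3 mutant arrays lay within 0.29 of each other, and wild type replicate 3 was 0.81 above the other wild type arrays. *ImpL1*, a gene first known as ecdysone-inducible in imaginal discs, read 8.57, 9.56 and 8.62 in the mutant, against 8.10, 7.11 and 7.72 in wild type, a difference of 1.27 that was not called. Its highest value was on mutant replicate 2 and its lowest on wild type replicate 2.

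Other genes of the ecdysone response were read from a list of 21 measured genes that holds both members. Of the 21, 3 were called higher, *Blimp-1*, *MsrA* (difference 0.88), a methionine sulfoxide reductase gene, and *Eip93F* (1.08), a transcription factor gene of late ecdysone responses, and none was called lower. The difference was positive in 18 of 21, with a median of 0.27 beside 0.00 over all genes. Lists from outside the pathway were as far to the positive side, with all 18 eye disc markers positive (median 0.25) and all 8 neuron markers (median 0.26), none of them called. *ImpE2* and *br*, named for the highest values in the list, differed by -0.06 and 0.13 and were not called. Without the members, the mean of 19 genes was 9.54, 9.63 and 9.50 on the mutant arrays and 9.07, 9.14 and 9.49 on the wild type arrays. Wild type replicate 3 was thus highest among wild type arrays both in this mean and in *Blimp-1*, but not in *ImpL1*. The eye disc and neuron markers, in contrast, had their lowest mean on that array (9.33 and 6.98), so the similar medians came from different arrays. *ftz-f1*, named after its values were seen because *Blimp-1* acts on it, read 6.86, 6.20 and 6.68 in the mutant and 7.69, 8.09 and 6.97 in wild type, a difference of -1.0 that was not called.

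**Figure D3:**
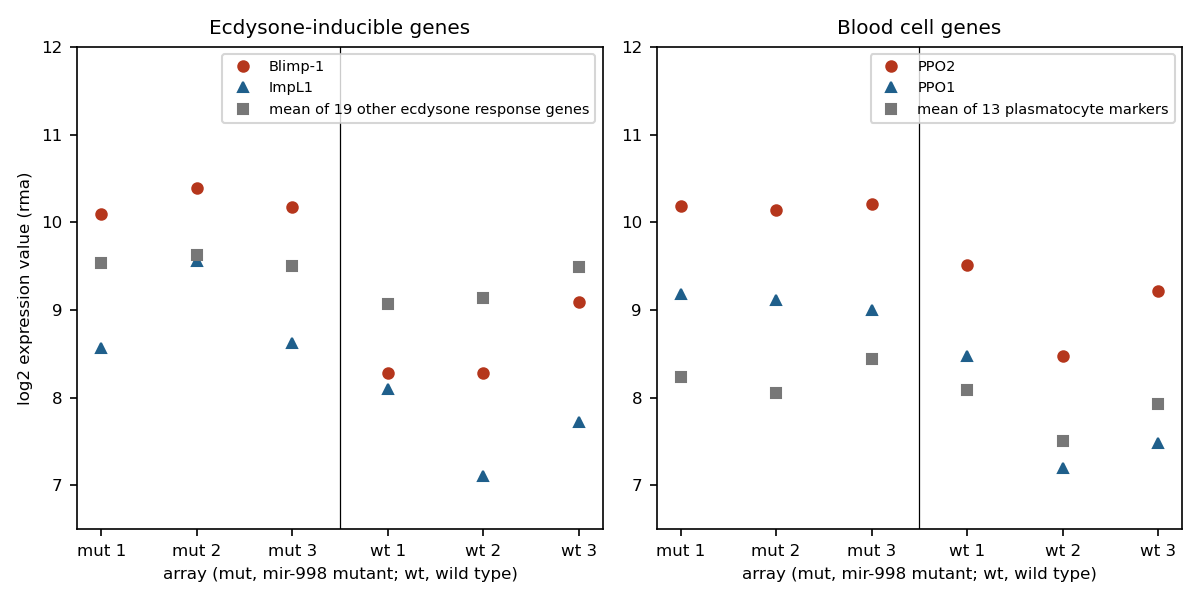
Log2 expression values on the 3 mutant (mut) and 3 wild type (wt) arrays. Left, *Blimp-1*, *ImpL1* and the mean of 19 other ecdysone response genes, which reached 9.49 on wild type replicate 3 against 9.50 to 9.63 in the mutant; right, *PPO2*, *PPO1* and the mean of 13 plasmatocyte markers, with wild type replicate 2 the lowest array in all 3. Symbols are to be read along the arrays, not against each other.

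Of the blood cell lists, only that of crystal cells held members, *PPO1* and *PPO2*. *PPO1* and *PPO2* encode prophenoloxidases, the enzymes of crystal cells that make melanin at wounds. *PPO1* read 9.18, 9.11 and 9.00 in the mutant, against 8.47, 7.20 and 7.48 in wild type (difference 1.38). *PPO2* read 10.19, 10.14 and 10.21 in the mutant, against 9.51, 8.47 and 9.22 in wild type (difference 1.11). Both were nearly level among the mutant arrays, with SDs of 0.09 and 0.04 (n = 3), while in wild type, with SDs of 0.67 and 0.54 (n = 3), both were highest on replicate 1 and lowest on replicate 2. Neither was called. The remaining genes of the crystal cell list were not called either, with *lz* at 0.59, *peb* at 0.30 and *PPO3* at -0.12, and *lz* and *peb* are also expressed by disc cells.

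Markers of plasmatocytes, the phagocytic blood cells, were read beside the prophenoloxidases. Of 13 measured markers 12 had a positive difference, with a median of 0.21, and 1, *NimC1*, was called. This median was no larger than those of the eye disc (0.25) and neuron (0.26) markers. The mean of the plasmatocyte markers was 8.23, 8.05 and 8.44 on the mutant arrays and 8.09, 7.50 and 7.93 on the wild type arrays. It was lowest on wild type replicate 2, as in *PPO1* and *PPO2*, whereas the eye disc and neuron means were lowest on wild type replicate 3. The lowest mean of the list, for which *NimC2* is named here, was 4.88 in the mutant and 4.86 in wild type. It was above the 3.72 of the control probe sets but under the array medians of 5.25 to 5.30. The 4 measured markers of lamellocytes, a further blood cell type, had a median of -0.12, with 2 of 4 positive and none called. The part of blood cell number in *PPO1* and *PPO2* was not tested.

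Members that act in the Toll or Imd pathways included *ea* and *pirk*. *ea* encodes Easter, a serine protease that activates Spätzle, the ligand of Toll, in the embryo. It read 8.33, 8.22 and 8.40 in the mutant, against 7.40, 7.41 and 6.60 in wild type (difference 1.18). *pirk*, whose product restrains the Imd pathway of the response to bacteria, read 8.12, 7.99 and 7.80 in the mutant, against 7.16, 7.23 and 6.33 in wild type (difference 1.06). Wild type replicate 3 was below the next wild type array by 0.80 in *ea* and 0.83 in *pirk*, and neither gene was called. In the list of 38 measured melanization and clotting genes, which holds *PPO1*, *PPO2* and *ea*, none was called higher, the serpin gene *Spn42Dd* was called lower (-0.82), and the median difference was -0.08. Without its members, the list averaged 6.70 to 6.80 on the mutant arrays and 6.74 to 6.87 on the wild type arrays. A list of 13 measured antimicrobial response genes held no member. Its difference was positive in 5 of 13, with a median of -0.10 and none called.

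*cysu* encodes a heme peroxidase that acts with the NADPH oxidase Duox in the wing. It read 9.40, 9.58 and 9.29 in the mutant, against 7.88, 7.87 and 8.14 in wild type, a difference of 1.46. The lowest mutant value was 1.15 above the highest wild type value, and the gene was called.

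Of the genes for lipid and lysosomal functions, *Npc2a* had the largest difference. Its product, a homolog of human Niemann-Pick type C2 protein, carries sterol out of the lysosome and so feeds ecdysone synthesis. *Npc2a* read 10.14, 9.91 and 10.25 in the mutant, against 8.56, 8.14 and 8.62 in wild type, a difference of 1.66 with 1.29 between the genotypes, and was called. *LManII*, a lysosomal alpha-mannosidase gene, read 9.37, 9.12 and 9.33 in the mutant, against 8.34, 7.84 and 8.49 in wild type (difference 1.05, called). In both genes replicate 2 was the lowest array of each genotype. The list of 24 lysosome and lipid genes had *Npc2a* and *LManII* as its only called genes, both higher, and a median of 0.03. The other 7 measured genes of the Npc2 family differed by -0.33 to 0.15 and the other 5 lysosomal mannosidases by 0.00 to 0.24, none called.

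*sturkopf* encodes a lipid droplet protein and had the tightest mutant values of the set, 11.25, 11.25 and 11.24, against 10.07, 9.79 and 10.12 in wild type (difference 1.25, called). Its probe set is of a type whose probes can be shared with other transcripts. *CG4586*, an acyl-CoA oxidase family gene, read 9.30, 9.40 and 8.77 in the mutant, against 7.34, 7.15 and 8.01 in wild type (difference 1.66, called). The lowest mutant and the highest wild type array, both replicate 3, were 0.76 apart.

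*CG2065*, of the short-chain dehydrogenase/reductase family, had the largest difference and the widest space of the set. It read 7.33, 7.31 and 7.72 in the mutant, against 5.68, 5.76 and 5.56 in wild type, a difference of 1.79 with 1.55 between the genotypes, and was called. *AOX3*, an aldehyde oxidase gene, read 9.11, 9.00 and 9.18 in the mutant, against 8.15, 8.19 and 7.66 in wild type (difference 1.10, called). The other 3 aldehyde oxidase genes measured differed by -0.18 to 0.21 and none was called, a family read after its values were seen.

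*Adk3*, of the adenylate kinase family, read 7.82, 8.03 and 8.28 in the mutant, against 6.42, 6.52 and 6.87 in wild type (difference 1.44, called). The genotypes were 0.95 apart, with replicate 3 highest in each. *l(1)G0196* encodes a kinase that makes inositol pyrophosphates. On its brightest probe set it read 9.65, 9.52 and 9.84 in the mutant, against 8.22, 8.35 and 8.15 in wild type (difference 1.43, called), with 1.17 between the genotypes. *Epac*, an exchange factor for the small GTPase Rap that cyclic AMP activates, read 7.12, 7.32 and 6.89 in the mutant, against 5.69, 6.08 and 6.27 in wild type (difference 1.10, called). *NaPi-III*, a phosphate transporter gene, read 11.02, 10.91 and 11.03 in the mutant, against 9.83, 10.08 and 9.04 in wild type (difference 1.34). It was not called, and its wild type replicate 3 was 0.79 under the next array.

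*Hsp26*, a small heat shock protein gene that is also active in normal development, spanned 0.34 among the mutant and 0.73 among the wild type arrays. It read 12.81, 12.71 and 12.47 in the mutant, against 11.49, 10.81 and 11.54 in wild type (difference 1.38, called). The other 8 measured heat shock genes were not called and differed by -0.41 to 0.27. *Hsc70-4*, a constitutive chaperone gene, and *Hsp27*, another small heat shock gene, named for the highest values in the list, differed by 0.02 and 0.16. The mean of the 8 other genes was 11.59, 11.49 and 11.62 on the mutant arrays and 11.45, 11.46 and 11.74 on the wild type arrays. The ranges of the genotypes overlap. The alpha-gamma element RNA *CR32865*, a non-coding repeat transcript of the heat shock locus that holds *Hsp70* genes, read 9.22, 9.32 and 9.34 in the mutant, against 7.82, 8.09 and 8.32 in wild type (difference 1.22, called). Its probes, too, can be shared with other transcripts.

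Several members encode secreted or cuticular proteins or are needed for cuticle. *amd*, a relative of dopa decarboxylase needed for cuticle, read 7.22, 7.18 and 7.22 in the mutant, against 5.88, 6.20 and 5.91 in wild type (difference 1.21, called), with 0.98 between the genotypes. *Lcp65Af*, a larval cuticle protein gene, read 7.67, 7.13 and 7.40 in the mutant, against 6.54, 6.84 and 5.07 in wild type (difference 1.25). It was not called, and its wild type arrays spanned 1.77, the widest spread of any member, with replicate 3 lowest. In the list of 106 measured cuticle genes 1 was called, *Cpr65Av* (1.04), and the median was -0.01. The other 5 genes of the *Lcp65A* cluster differed by -1.31 to 0.51 with none called, a family also read after its values were seen.

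*nolo*, an ADAMTS-like matrix protein gene, read 9.66, 9.42 and 9.74 in the mutant, against 8.67, 8.90 and 8.02 in wild type (difference 1.08, not called). *fat-spondin*, a secreted spondin gene, read 7.80, 7.58 and 8.30 in the mutant, against 6.92, 5.71 and 7.28 in wild type (difference 1.26, not called), with 0.30 between the genotypes. The low wild type array was replicate 3 in *nolo* and replicate 2 in *fat-spondin*. *Fcp3C*, a follicle cell protein gene, read 7.77, 7.49 and 7.86 in the mutant, against 6.61, 6.43 and 6.79 in wild type (difference 1.10, called).

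Genes known from the nervous system were also among the members. *Nplp1* and *Nplp4* encode precursors of neuropeptide-like peptides. *Nplp1* read 9.10, 9.23 and 9.09 in the mutant, against 8.48, 7.89 and 7.64 in wild type (difference 1.14). *Nplp4* read 12.62, 12.00 and 12.24 in the mutant, against 11.07, 11.86 and 10.59 in wild type (difference 1.11), so that wild type replicate 2 all but reached mutant replicate 2. Neither was called, and the other measured genes of that name, *Nplp2* and *Nplp3*, differed by 0.14 and -0.05. *Culd*, whose CUB and LDLa domain protein serves rhodopsin trafficking in adult photoreceptors, read 7.98, 7.72 and 8.09 in the mutant, against 7.02, 6.43 and 6.43 in wild type (difference 1.30, called). *2mit*, a leucine-rich repeat transmembrane protein gene, read 8.15, 7.93 and 8.29 in the mutant, against 6.64, 7.16 and 6.92 in wild type (difference 1.22, called). None of 8 measured neuron markers was called. The difference was positive in 8 of 8, with a median of 0.26, and their mean was 7.59, 7.49 and 7.62 on the mutant arrays and 7.27, 7.54 and 6.98 on the wild type arrays.

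For the last group no role is stated here. It includes *CG7906*, at 8.26, 8.70 and 7.96 in the mutant, against 6.84, 6.70 and 6.68 in wild type (difference 1.57, called), whose wild type arrays were within 0.16 of each other. *CG10053* was as even, at 8.60, 8.51 and 8.44 in the mutant, against 7.41, 7.43 and 7.53 in wild type (difference 1.06, called). *CG13064* (difference 1.28) and *CG13046* (1.15) were called and lie close together in the RefSeq gene order, with 3 genes between them. *CG13064* read 10.34, 10.01 and 10.25 in the mutant, against 8.78, 8.72 and 9.27 in wild type. *CG13046* read 8.72, 8.27 and 8.65 in the mutant, against 7.32, 7.56 and 7.32 in wild type. In both, mutant replicate 2 was the lowest mutant array. The genes between them, *CG13049*, *CG13048* and *CG13047*, differed by 0.01, 0.09 and -0.15, and none was called.

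The only other pair of members within 20 genes of each other was *Npc2a* and *Nplp4*, with 6 genes between. Of these 3 were measured. *CG15353* was called at 0.94, and *Obp22a* and *CG33543* differed by -0.08 and 0.06. The next closest members, *Blimp-1* and *CG42272*, had 27 genes between them. All 41 members were matched in the RefSeq table.

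*CG11170* read 8.61, 8.41 and 8.44 in the mutant, against 7.59, 7.32 and 7.12 in wild type (difference 1.14, called). *CG15814*, at 9.23, 9.36 and 9.52 in the mutant, against 8.41, 8.54 and 8.12 in wild type (difference 1.01, called), was measured by probes that can be shared. *CG42272*, at 7.34, 7.10 and 7.29 in the mutant, against 6.12, 6.19 and 5.82 in wild type (difference 1.20), was called as well. The remaining genes without a stated role, *CG7650* (1.34), *CG11370* (1.30), *CG42788* (1.18), *CG13082* (1.15), *CG8927* (1.12) and *CG42342* (1.03), were not called. *CG42788* had 1 array far from the rest, reading 7.71, 7.47 and 7.36 in the mutant, against 6.89, 6.71 and 5.40 in wild type. *CG13082* spanned 0.52 among the mutant and 1.32 among the wild type arrays, at 8.63, 9.15 and 8.67 in the mutant, against 7.65, 7.02 and 8.34 in wild type. *CG11370* had its high wild type value on the same array, reading 10.05, 10.21 and 10.49 in the mutant, against 8.84, 8.59 and 9.41 in wild type. *CG8927* read 8.28, 8.15 and 8.51 in the mutant, against 6.84, 7.69 and 7.04 in wild type, replicate 2 being the high one.

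The spread within a genotype was mostly on the wild type side. In 34 of 41 members the SD of the wild type arrays was larger than that of the mutant arrays, as it was in 76.7% of the 6137 genes with a mutant mean of 7 or more. The median SD was 0.17 in the mutant and 0.34 in wild type for the members, and 0.10 in the mutant and 0.18 in wild type for the 6137 genes. The mutant arrays spanned 0.5 or less in 34 members, all but *CG13082*, *CG4586*, *CG7906*, *ImpL1*, *Lcp65Af*, *Nplp4* and *fat-spondin*, whereas the wild type arrays did so in 15.

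No single wild type array was the lowest in most members. Replicate 3 was the lowest wild type array in 19 members (46.3%, beside 46.8% of the 6137 genes), and replicate 2 in 16 (39%, beside 26%). Replicate 3 stood apart by 0.5 or more below both others in 7 members, *CG42788*, *CG7650*, *Lcp65Af*, *NaPi-III*, *ea*, *nolo* and *pirk*, none of them called. Replicate 2 did so in 6 others, *CG13082*, *Hsp26*, *ImpL1*, *LManII*, *PPO2* and *fat-spondin*. Replicate 1 was 0.5 or more below both others in none. In the opposite direction, replicate 3 was the high wild type array by 0.5 or more in *Blimp-1*, *CG11370*, *CG13082* and *CG4586*, replicate 1 in *Culd*, *Nplp1* and *PPO1*, and replicate 2 in *CG8927* and *Nplp4*. The members thus differed among themselves in which wild type array was low. On the mutant side, replicate 2 was lowest in 21 members (51.2%, beside 29.6%).

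**Figure D4:**
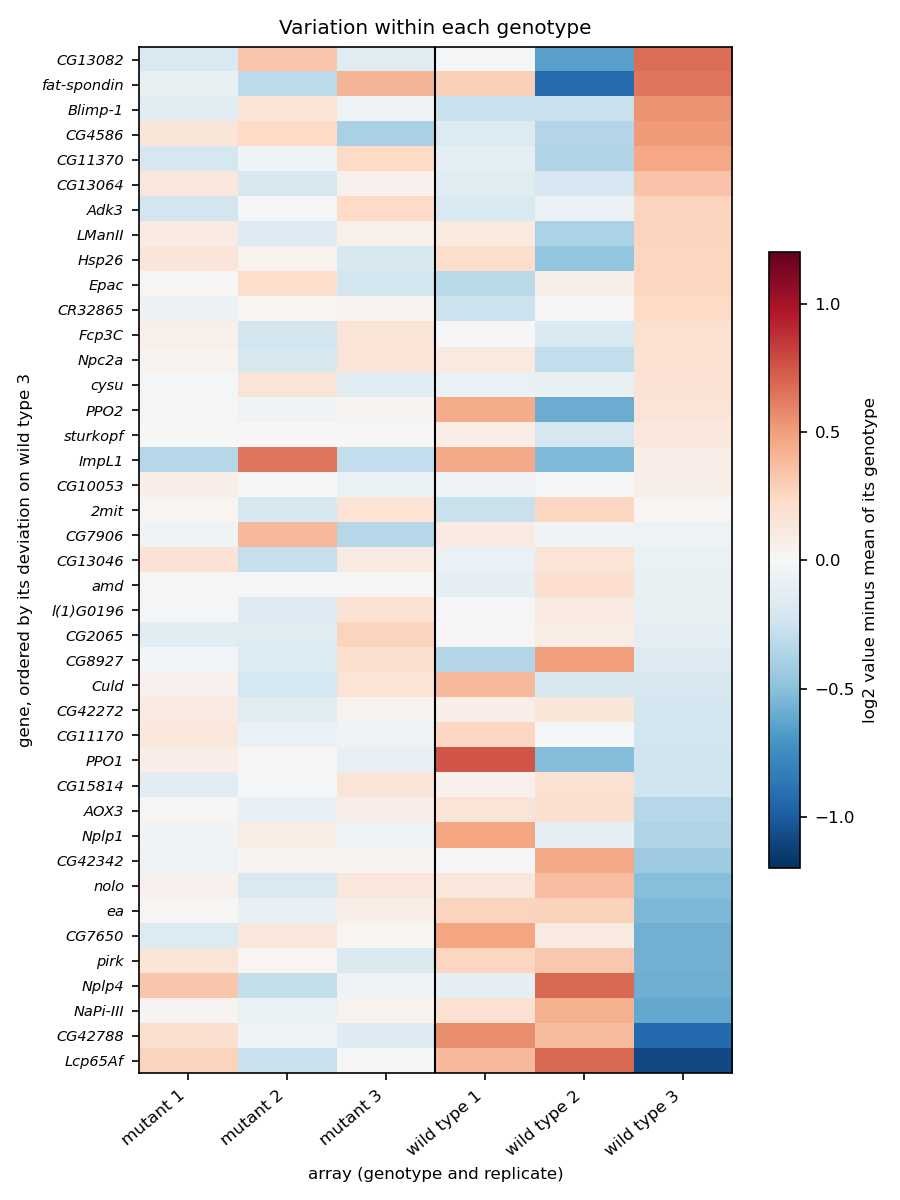
Deviation of each array from the mean of its own genotype (log2, color scale), for the 41 genes in rows and the arrays in columns, mutant left of the black line and wild type right of it. Rows run from the highest to the lowest deviation on wild type replicate 3, which is above its genotype's mean in *CG13082* and *Blimp-1* and below it in *Lcp65Af* and *CG42788*; the wild type columns hold most of the strong colors.

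Further probe sets gave another reading of some members on the same arrays. They existed for 8 members, 16 probe sets in all, while 33 members had 1 probe set. All 7 further probe sets with a mutant mean of 5.5 or more had a higher mean in the mutant, by 0.06 to 1.38. The 9 dimmer ones differed by 0.27 or less in size. Only 1 of the 16 differed by 1.0 or more and 3 had no overlap, beside 9.37% of all genes, each read from its brightest probe set.

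*l(1)G0196* was the member with the most readings. A further probe set read 6.84, 6.50 and 6.93 in the mutant, against 5.25, 5.36 and 5.53 in wild type, a difference of 1.38 close to the 1.43 of the brightest, and was called. The others differed by 0.58, 0.57 and -0.04, the last at a mutant mean of 3.92, and were not called. *CG42342*, read by its brightest probe set at 9.09, 9.18 and 9.18 in the mutant, against 8.10, 8.58 and 7.69 in wild type, had further differences of 0.74, 0.06 and 0.18. *CG7650*, at 7.36, 7.66 and 7.55 in the mutant, against 6.66, 6.29 and 5.61 in wild type, had 0.69 and 0.27. For *2mit* (-0.02 and -0.09), *CG42272* (0.27), *CG42788* (-0.08), *Epac* (0.02) and *nolo* (0.10 and -0.05) the further probe sets had mutant means under 5.5. The members thus included genes for which the size of the difference depended on the probe set read.

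**Figure D5:**
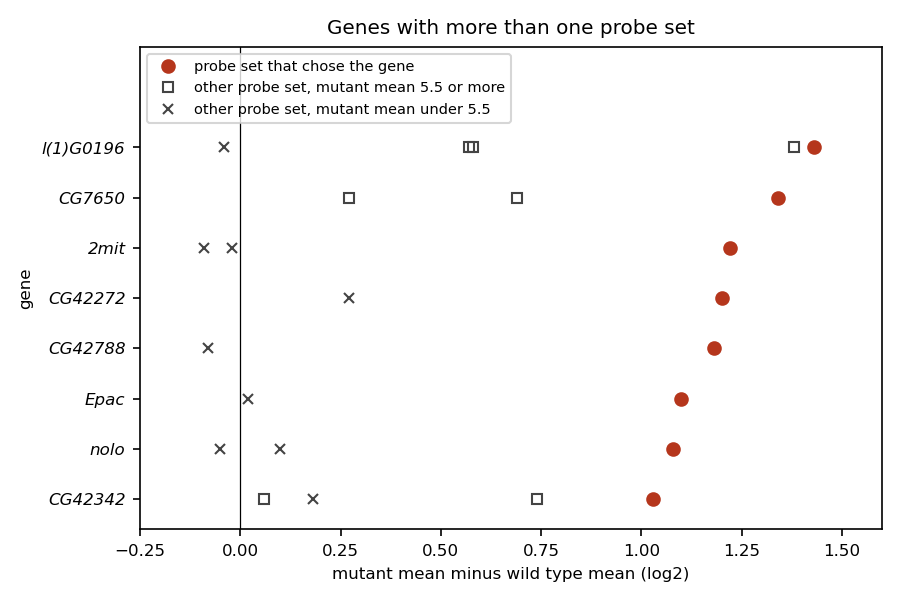
Mutant mean minus wild type mean (log2, horizontal axis) for the 8 members with more than 1 probe set. The probe set that chose the gene (filled circle) had the largest difference in each; further probe sets with a mutant mean of 5.5 or more (open squares) lay between 0.06 and 1.38, and dimmer ones (crosses) between -0.09 and 0.27.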

How the data were processed

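Total RNA of *mir-998[exc222]* and *w1118* eye discs, 3 samples each, was hybridized to Affymetrix *Drosophila* arrays. The authors deposited log2 expression values of 18952 probe sets, for which the affy package's rma procedure had corrected the background, given the arrays a common distribution and summarized the probes, so that overall levels are alike by construction. Arrays give no read depth, so the number of arrays limits the precision, and 3 against 3 samples cannot give an exact permutation p under 0.1.

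Mutant and wild type were compared by limma 3.58.1 (default lmFit and eBayes, R 4.3.3) on 18769 probe sets, which excludes 183 controls. A gene is called where its p-value, after Benjamini-Hochberg adjustment over these probe sets, is at most 0.05. A platform annotation, updated through the RefSeq table of assembly Release 6, gave 13647 probe sets with 1 gene (13544 matched by gene ID), 402 with several and 4720 unnamed here. A gene was read from its probe set with the highest mean. Genome coordinates and sequences were not used here, and the RefSeq table's gene order served only to find members that neighbour each other.

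The members and all lists were chosen with earlier results of these data known. Values on all arrays are given for members with the largest differences, widest spaces or brightest levels, a listed or known role, further probe sets, a neighbouring member, or a place at a bound. Other genes of a list are named where called, and otherwise the brightest. *NimC2*, *PPO3*, *ftz-f1* and the families of *Npc2a*, *LManII*, *AOX3*, *Nplp1* and *Lcp65Af* were added with their values in view. So were the named gut genes and the counts of the antimicrobial and lamellocyte lists. Of 35 lists, 6 held a member. Alternatives were other normalizations, probe set rules, bounds, settings of limma, and leaving out each array.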

Additional observations from a re-analysis of the deposited data

How the results depend on the processing

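The rule gave 41 genes from the values as deposited. It gave 44 after another quantile normalization and 46 after subtraction of each array's median, all 41 among them, and 34 from the mean of a gene's probe sets, 33 shared. With a range of 0.9 to 2.2 it gave 58, with a level of 6 or 8 it gave 52 or 30, and without the condition on overlap 42. Leaving out 1 array gave 45 to 58 genes, of which 31 (without wild type replicate 3) to 40 were members, and 24 members were kept in each of these 6 settings. The median difference of 1.22 ran from 1.19 to 1.29.

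Calls depended more on the settings. Members called, 24 in the main setting, were 25 under either normalization, 29 with an intensity trend, 31 with array weights and 26 without dim probe sets. They ran from 10 to 29 with 1 array left out, lowest without a mutant array (10, 11 and 10). All genes called higher, 116 in the main setting, were 177 with array weights and ran from 42 to 148 with 1 array left out (42, 47 and 48 without mutant replicate 1, 2 or 3, and 68 without wild type replicate 2). Each fit with an array left out has fewer samples. Without wild type replicate 3 both counts were above the main setting, at 29 members and 148 genes. The cause of these changes was not tested. With the replicate number as a replicate block, 18 members and 96 genes were called. Deviations of same-numbered arrays correlated at 0.193, -0.230 and 0.286, and mutant replicates 1 and 3 correlated best with their own number but mutant replicate 2 with wild type replicate 1. The fat body markers had the same order by number in both genotypes (7.22, 5.96 and 5.61 in the mutant, 7.43, 6.29 and 5.85 in wild type). Pairing was not shown for all numbers, and whether some samples share an origin was not tested. Values near 3.72, the highest array mean of the 3 bacterial control probe sets, cannot show how low a transcript is.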

Other observations

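Dimmer genes with the same contrast were left out by the level of 7. Of genes with a difference of 1.0 to 2.0 and no overlap, 21 had a lower mutant mean and none of the names set aside. They included *gnu*, a gene of the syncytial cell cycle, at 6.89, 6.67 and 6.56 in the mutant and 5.12, 4.97 and 5.20 in wild type (difference 1.61). *Cda5*, a chitin deacetylase gene, read 6.73, 6.55 and 6.90 in the mutant and 5.49, 5.71 and 5.71 in wild type (1.09). *ppk28*, which encodes a channel of water-sensing neurons, read 6.11, 5.82 and 6.04 in the mutant and 4.99, 5.05 and 4.88 in wild type (1.02). All 3 were called, and they were picked for mention with their values in view. *MtnB*, a metallothionein gene, and *Pdp1*, a clock and growth transcription factor gene, differed by 1.12 and 1.09 and were not called.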
